A study of Mus musculus with 6 samples.

Results

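The blood cell genes *Csf2rb*, *Csf2rb2*, *Epor*, *Kit*, *Csf1r*, *Ptprc* and *Itga2b*, which encode cytokine receptors and surface proteins of erythroid, megakaryocyte and myeloid cells, were followed in hearts of E9.5 mouse embryos. These 7 members of the group were found by symbol among the 54532 genes of the count table, and 6 of them were among the 19372 genes with enough counts for a test. RNA-seq was made from 3 WT and 3 *Smyd1-KO* hearts, each from 1 embryo at embryonic day 9.5 with no treatment. *Smyd1* encodes a methyltransferase of striated muscle, and the *Smyd1-KO* embryos were homozygous for a conventional null allele, so every cell of the embryo and not only its cardiomyocytes carried the mutation. WT and heterozygous *Smyd1* mice came from the Jackson Laboratory. Whole hearts were measured without sorting, and fewer blood cells in the heart and less RNA per blood cell cannot be told apart in such data.

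Cytokine receptors carry survival and growth signals into blood cells. *Csf2rb* encodes the beta chain that GM-CSF, IL-3 and IL-5 receptors share, *Csf2rb2* encodes the mouse-specific beta chain of the IL-3 receptor, and *Epor* encodes the receptor of erythropoietin, the hormone of red cell production. *Kit* and *Csf1r* encode receptor tyrosine kinases, the former for stem cell factor on progenitors and mast cells and the latter for CSF1 on macrophages. *Ptprc* encodes CD45, the phosphatase that covers all leukocytes, and *Itga2b* encodes CD41, the integrin chain of megakaryocytes and of early blood progenitors. At this stage the heart tube is filled with primitive erythrocytes from the yolk sac, and its endocardium is a relative of the vessels that make blood.

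Total gene counts ran from 48627825 to 64217529 per heart, and values are given as CPM, the counts of a gene relative to the library's total after TMM normalization. *Smyd1* itself was at 414, 379 and 270 CPM in WT and at 101, 222 and 206 CPM in *Smyd1-KO* hearts, lower in all 3 knockouts but not past edgeR's test (adjusted *P*=0.0973), while DESeq2 called it lower (adjusted *P*=0.00534). The part of the gene that was deleted is not given in the sources used here, so its remaining counts do not measure intact transcript. The tissue label was checked against 10 cardiomyocyte genes, whose summed level was 11270 to 18660 CPM in WT and 8546 to 17760 CPM in *Smyd1-KO* hearts. *Actc1*, the cardiac actin, had the highest mean over all hearts at 5374 ± 1855 CPM in WT and 4958 ± 1640 CPM in *Smyd1-KO* hearts (SD, *n*=3), followed by *Myh6*, the alpha myosin heavy chain, at 3749 ± 830 and 2290 ± 773 CPM. Of the 10 genes 0 were called by edgeR and 1 by DESeq2, and 2 had an unadjusted *P* under 0.05.

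*Csf2rb* and *Csf2rb2* are neighbors on chromosome 15, 20030 bp apart and on opposite strands, and are near copies of each other. Of 2619 aligned coding bases 2504 were the same (95.6%). The 90 coding bases below are the stretch within 1 exon of each gene where the copies differ most, and are shown because reads from it can be assigned to 1 copy. The differing bases are in capitals. The *Csf2rb* stretch lies in exon 6 at chr15:78340444-78340533 on the forward strand, and that of *Csf2rb2* in exon 5 at chr15:78292776-78292865 on the reverse strand (GRCm38).
Csf2rb: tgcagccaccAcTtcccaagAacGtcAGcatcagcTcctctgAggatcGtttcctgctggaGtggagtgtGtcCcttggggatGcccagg
Csf2rb2: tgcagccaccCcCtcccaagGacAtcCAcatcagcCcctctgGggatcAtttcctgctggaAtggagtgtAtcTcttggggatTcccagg
The copies differ at 13 of these 90 bases. A stretch with 0 differences lies in exon 9 of *Csf2rb* at chr15:78341658-78341747 and in exon 8 of *Csf2rb2* at chr15:78291563-78291652. It is shown because a read within it cannot be assigned by its own bases.
Shared: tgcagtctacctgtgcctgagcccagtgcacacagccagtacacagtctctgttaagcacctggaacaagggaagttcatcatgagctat
Of the 75-base windows in the *Csf2rb* transcript, 10.7% occur unchanged in *Csf2rb2*, and 11.1% of those in *Csf2rb2* occur in *Csf2rb*. These shares are for single reads, and the other end of a fragment may still assign it. The counting tool is not given in the sources used here, so the split of reads between the copies is uncertain, and both genes were also tested as a sum.

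*Csf2rb* and *Csf2rb2* were the members that fell in *Smyd1-KO* hearts. By edgeR's quasi-likelihood test, where a call needed an adjusted *P* under 0.05 and a change of 0.5 or more on the log2 scale in either direction, 2 of the 6 tested members were called and both were lower, while 4.28% of all tested genes were called in either direction and 1.42% were called lower. The median log2 fold change was -0.30 over the 6 members and -0.00 over all tested genes. The genotypes did not overlap in 3 members, the 2 beta chains below WT and *Kit* above, against 31.3% of all tested genes. The log2 fold changes of the other 4 tested members lay between -0.33 and 0.64.

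**Figure D1:**
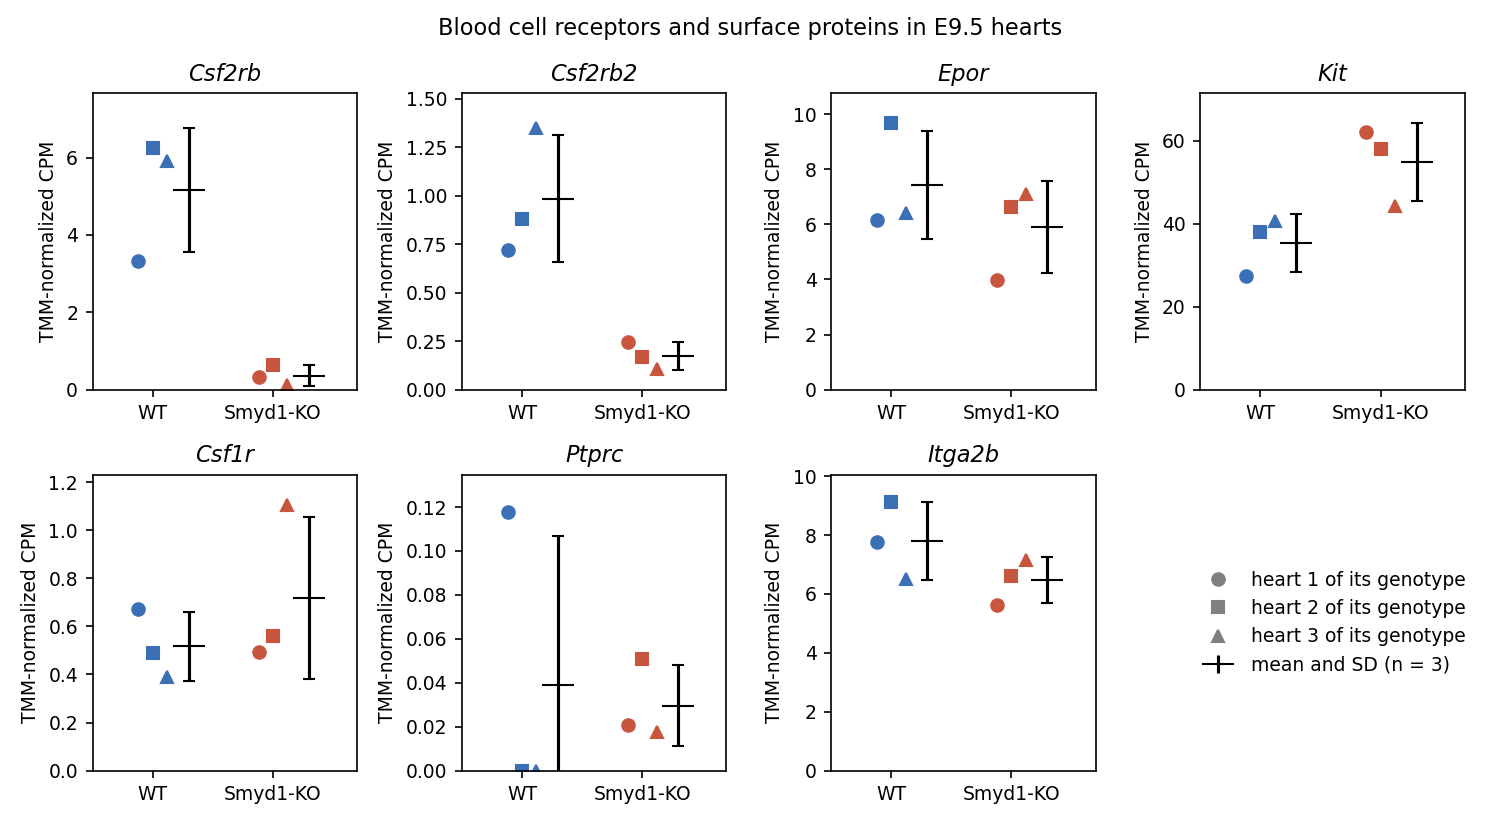
TMM-normalized CPM (vertical axis, from 0) of each gene in the 3 WT hearts (blue) and the 3 *Smyd1-KO* hearts (red), with the mean and SD in black, cut at 0 for *Ptprc*. The *Smyd1-KO* hearts sit at 0.123 to 0.643 CPM for *Csf2rb* against 3.32 to 6.24 CPM in WT, and above all WT hearts for *Kit*.

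*Csf2rb* (ENSMUSG00000071713, chr15:78325752-78353847) had 198, 396 and 394 counts in the WT hearts and 16, 38 and 7 counts in the *Smyd1-KO* hearts. These were 3.32, 6.24 and 5.92 CPM in WT and 0.329, 0.643 and 0.123 CPM in *Smyd1-KO* hearts. Every knockout heart lay far below the lowest WT heart, and the third knockout was the lowest. The mean was 5.16 ± 1.60 CPM in WT and 0.365 ± 0.262 CPM in *Smyd1-KO* hearts, 14.0-fold lower (log2 fold change -3.81, SE 0.552, edgeR adjusted *P*=0.0150). The log2 fold change stayed between -4.52 and -3.39 when any 1 heart was left out, but the call was lost without WT heart 2 (adjusted *P*=0.0825) and without WT heart 3 (adjusted *P*=0.0689).

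*Csf2rb2* (ENSMUSG00000071714, chr15:78282507-78305721) was lower in WT hearts than its neighbor, with 43, 56 and 90 counts, and fell to 12, 10 and 6 counts in *Smyd1-KO* hearts. In CPM these were 0.722, 0.882 and 1.35 in WT and 0.247, 0.169 and 0.105 in *Smyd1-KO* hearts. The genotypes did not overlap here either. The mean fell 5.68-fold from 0.985 ± 0.327 to 0.174 ± 0.0710 CPM (log2 fold change -2.51, SE 0.408, edgeR adjusted *P*=0.0204). This call rested on few counts and was lost when *Smyd1-KO* heart 2, *Smyd1-KO* heart 3, WT heart 2 or WT heart 3 was left out (adjusted *P*=0.0766, 0.0583, 0.0913 and 0.0808), with the log2 fold change between -2.82 and -2.20 throughout.

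Summed over both copies, which removes the question of how shared reads were split, the beta chains were at 4.05, 7.12 and 7.27 CPM in WT and at 0.576, 0.812 and 0.228 CPM in *Smyd1-KO* hearts. The sum was 11.4-fold lower in *Smyd1-KO* hearts (log2 fold change -3.51, SE 0.469, edgeR adjusted *P*=0.0117). An exact two-sided permutation test of the summed CPM over the 6 hearts gave *P*=0.1, the smallest that 3 against 3 hearts allow. *Csf2rb* took 82.2%, 87.6% and 81.4% of the counts of both genes in WT hearts and 57.1%, 79.2% and 53.8% in *Smyd1-KO* hearts. The share was lower in every knockout than in every WT heart. The exact 95% interval, which covers counting error only, ran from 37.2% to 75.5% in *Smyd1-KO* heart 1, from 65.0% to 89.5% in heart 2 and from 25.1% to 80.8% in heart 3, and the WT intervals ran from 76.7% to 90.5% in all, so that those of hearts 2 and 3 overlapped WT intervals. The exact permutation *P* for the share was again 0.1.

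**Figure D2:**
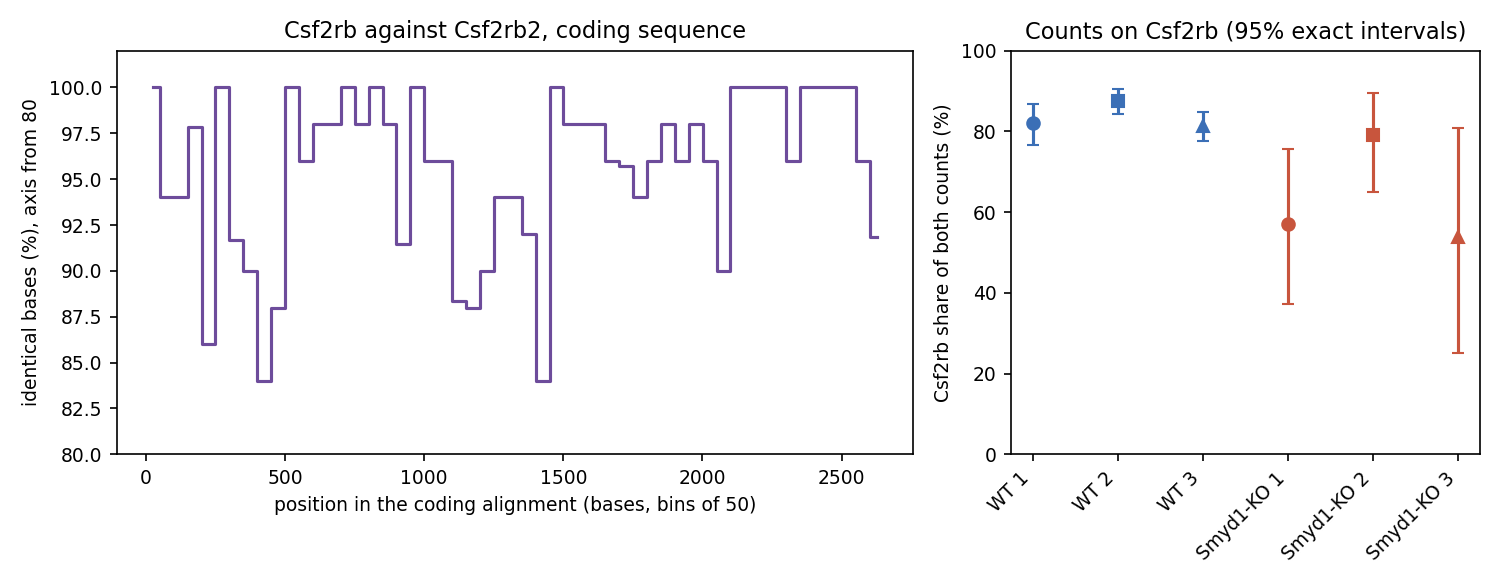
Left, share of identical bases (vertical axis, from 80%) in bins of 50 bases along the coding alignment of *Csf2rb* and *Csf2rb2* (horizontal axis, bases). Right, the percentage of the counts of both genes that fell on *Csf2rb* in each heart, with 95% exact intervals, which is 81.4% to 87.6% in WT and 53.8% to 79.2% in *Smyd1-KO* hearts.

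The ligand-specific partner chains of *Csf2rb* did not pass the test. *Csf2ra*, the alpha chain for GM-CSF, was at 16.4, 15.5 and 13.2 CPM in WT and at 11.4, 15.7 and 14.9 CPM in *Smyd1-KO* hearts (log2 fold change -0.10, SE 0.160, edgeR adjusted *P*=0.736). *Il3ra*, the alpha chain for IL-3, was at 8.37 ± 1.19 CPM in WT and 11.0 ± 2.73 CPM in *Smyd1-KO* hearts (log2 fold change 0.40, SE 0.217, edgeR adjusted *P*=0.301). Both alpha chains overlapped between genotypes. *Il5ra*, the alpha chain for IL-5, had at most 0.0158 CPM in any heart and was not tested. Their ligands were at or near 0, with *Il3* at 0 counts in all 6 hearts, *Csf2* (GM-CSF) above 0 in WT heart 2 alone at 0.0945 CPM and *Il5* at no more than 0.0451 CPM. A count of 0 allows up to 3 counts, which is 0.0451 to 0.0617 CPM in these hearts.

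The erythropoietin gene rose in *Smyd1-KO* hearts, and its receptor did not pass the test. *Epor* (ENSMUSG00000006235, chr9:21958897-21963506, reverse strand) was at 6.16, 9.67 and 6.43 CPM in WT and at 3.99, 6.63 and 7.11 CPM in *Smyd1-KO* hearts. Only the first knockout lay below all WT hearts, so the genotypes overlapped. The mean was 7.42 ± 1.96 CPM in WT and 5.91 ± 1.68 CPM in *Smyd1-KO* hearts (log2 fold change -0.33, SE 0.277, edgeR adjusted *P*=0.503). *Epo*, the ligand, rose from 0.487, 1.06 and 1.05 CPM in WT to 5.37, 2.28 and 3.19 CPM in *Smyd1-KO* hearts. All knockouts were above all WT hearts, the first knockout most (log2 fold change 2.06, SE 0.421, edgeR adjusted *P*=0.0389). The *Epo* call was lost when any heart other than *Smyd1-KO* heart 1 was left out, with adjusted *P* from 0.0554 without *Smyd1-KO* heart 2 to 0.136 without WT heart 2, and the log2 fold change stayed between 1.66 and 2.30.

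The ligand of *Kit* fell, and *Kit* itself was higher in each knockout without passing edgeR's test. *Kit* (ENSMUSG00000005672, chr5:75574916-75656722, forward strand) was at 27.4, 38.0 and 40.6 CPM in WT and at 62.2, 58.2 and 44.3 CPM in *Smyd1-KO* hearts. The knockouts lay above every WT heart, but the third knockout was close to the third WT heart. The mean was 35.3 ± 6.97 CPM in WT and 54.9 ± 9.40 CPM in *Smyd1-KO* hearts, and the log2 fold change of 0.64 (SE 0.181) did not pass edgeR's test (adjusted *P*=0.0862). DESeq2 called it (adjusted *P*=0.0136), together with both beta chains, where it called 9.29% of all genes it tested. *Kitl*, which encodes stem cell factor, fell from 65.4, 71.8 and 83.8 CPM in WT to 46.3, 47.5 and 49.4 CPM in *Smyd1-KO* hearts. The 3 knockouts were close together and below all WT hearts (log2 fold change -0.63, SE 0.103, edgeR adjusted *P*=0.0208). The *Kitl* call was kept without *Smyd1-KO* heart 1 or WT heart 1 and lost without *Smyd1-KO* heart 2 (adjusted *P*=0.0797), *Smyd1-KO* heart 3 (0.0565), WT heart 2 (0.102) or WT heart 3 (0.0666).

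*Csf1r* (ENSMUSG00000024621, chr18:61100598-61132149, forward strand) had only 40, 31 and 26 counts in WT and 24, 33 and 63 counts in *Smyd1-KO* hearts. The third knockout stood above the others and the rest overlapped. The mean was 0.517 ± 0.143 CPM in WT and 0.719 ± 0.335 CPM in *Smyd1-KO* hearts (log2 fold change 0.48, SE 0.393, edgeR adjusted *P*=0.487), and the log2 fold change was 0.03 without *Smyd1-KO* heart 3. Its end overlaps *Hmgxb3* on the other strand by 873 bp, a gene with 2522 to 3647 counts per heart. The strand setting of the counting is not given in the sources used here, so reads from the overlap cannot be told apart. *Csf1*, the ligand of *Csf1r*, was at 12.7 ± 0.511 CPM in WT and 13.6 ± 4.36 CPM in *Smyd1-KO* hearts (log2 fold change 0.09, SE 0.224, edgeR adjusted *P*=0.835). *Il34*, the other ligand of *Csf1r*, reached 0.110 CPM at most and was not tested.

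*Itga2b* (ENSMUSG00000034664, chr11:102453297-102470122, reverse strand) was at 7.76, 9.14 and 6.50 CPM in WT and at 5.64, 6.61 and 7.17 CPM in *Smyd1-KO* hearts. The groups overlapped, and the log2 fold change was -0.27 (SE 0.182, edgeR adjusted *P*=0.400). *Itgb3*, which encodes the beta chain that pairs with CD41 in the fibrinogen receptor and with the alpha V chain in other cells, fell from 54.5, 56.8 and 37.7 CPM in WT to 16.7, 25.1 and 24.1 CPM in *Smyd1-KO* hearts. All knockouts were below all WT hearts (log2 fold change -1.18, SE 0.207, edgeR adjusted *P*=0.0256). This call was kept without *Smyd1-KO* heart 1 or WT heart 3 and lost without *Smyd1-KO* heart 2 (adjusted *P*=0.0628), *Smyd1-KO* heart 3 (0.0583), WT heart 1 (0.0736) or WT heart 2 (0.121).

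**Figure D3:**
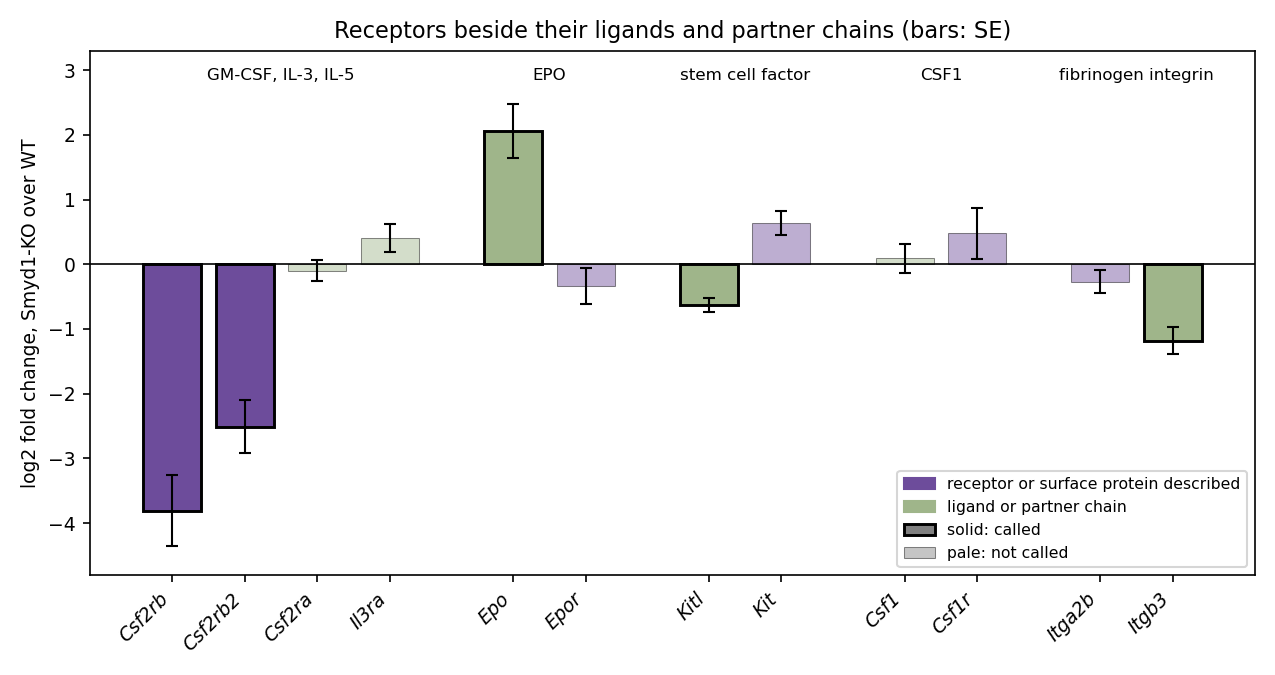
Log2 fold change of *Smyd1-KO* over WT (vertical axis) with its SE for each tested receptor or surface protein (purple) beside its ligands and partner chains (green), in groups named at the top; solid bars were called by edgeR and pale bars were not. In the EPO, stem cell factor and integrin groups the called gene is the ligand or partner chain (*Epo* 2.06, *Kitl* -0.63, *Itgb3* -1.18), and in the GM-CSF, IL-3 and IL-5 group both beta chains are called (*Csf2rb* -3.81, *Csf2rb2* -2.51).

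*Ptprc* (ENSMUSG00000026395, chr1:138062861-138175708, reverse strand) had 7, 0 and 0 counts in WT and 1, 3 and 1 counts in *Smyd1-KO* hearts. Only WT heart 1, at 0.117 CPM, was above the 3 counts that a count of 0 allows. The filter on low counts left it out of the test, and a difference was not detectable at this depth. CD45 transcripts were thus at or near 0 in hearts of both genotypes.

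Compared per exonic length (RPKM), *Kit* and *Epor* were the highest members in WT hearts at 3.96 ± 0.782 and 3.73 ± 0.983 RPKM, and their ranges over hearts overlapped. *Itga2b* followed at 1.43 ± 0.242 RPKM, *Csf2rb* at 0.709 ± 0.220 RPKM, *Csf2rb2* at 0.208 ± 0.0690 RPKM and *Csf1r* at 0.0895 ± 0.0247 RPKM, and no range touched that of the next gene. *Ptprc* was last at 0.00214 RPKM. In *Smyd1-KO* hearts *Kit* stood alone at 6.16 ± 1.06 RPKM, above *Epor* at 2.97 ± 0.845 RPKM and *Itga2b* at 1.19 ± 0.142 RPKM. The beta chains dropped behind *Csf1r* (0.124 ± 0.0580 RPKM), with *Csf2rb* at 0.0501 ± 0.0360 RPKM and *Csf2rb2* at 0.0366 ± 0.0150 RPKM. The ranges of *Csf1r* and *Csf2rb* overlapped in the knockouts, as did those of the 2 beta chains.

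The promoters of *Csf2rb2* and *Epor* are shown because letters of motifs known for blood cell transcription factors were found in them. Each is the RefSeq window from 250 bases before to 50 bases after the start site (GRCm38.p6), printed along the gene's own strand. Motifs were searched on both strands and are in capitals, as their reverse complement where they lie on the other strand. The *Csf2rb2* window (chr15:78305672-78305971, reverse strand) holds the GATA motif TGATAA with its first printed base at -38, the KLF1 motif CCACACCC at -143, the STAT5 motif TTCNNNGAA at -15 and the PU.1 motif GAGGAAGT at 27. The *Epor* window (chr9:21963527-21963826, reverse strand) holds the GATA motif AGATAA at -54.
Csf2rb2: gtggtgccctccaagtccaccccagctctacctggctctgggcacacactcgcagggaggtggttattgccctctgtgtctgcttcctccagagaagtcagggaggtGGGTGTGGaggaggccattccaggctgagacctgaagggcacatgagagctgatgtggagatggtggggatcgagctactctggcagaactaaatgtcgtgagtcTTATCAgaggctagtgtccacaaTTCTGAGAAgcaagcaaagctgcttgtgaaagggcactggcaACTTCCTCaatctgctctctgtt
Epor: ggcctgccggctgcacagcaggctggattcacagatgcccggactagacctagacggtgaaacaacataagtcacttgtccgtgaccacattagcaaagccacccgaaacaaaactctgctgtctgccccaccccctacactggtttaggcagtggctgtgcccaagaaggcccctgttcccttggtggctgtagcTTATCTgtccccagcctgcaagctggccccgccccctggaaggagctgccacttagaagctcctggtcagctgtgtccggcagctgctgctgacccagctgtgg
Among 32851 mouse promoter windows of this length, 18.6% held AGATAA or TGATAA, 3.56% CCACACCC, 8.30% TTCNNNGAA and 3.20% GAGGAAGT. No window was at hand for *Csf2rb*, and *Csf1r* was left out of the search of the members, so neither is described. None of these motifs was in the windows of *Kit* or *Itga2b*, and 1 of the 2 *Ptprc* windows held AGATAA and TGATAA. A match in these letters is a description of the sequence and not a measured site.

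Other receptors of the hematopoietic cytokine family and the signaling genes downstream did not pass edgeR's test. Of 12 other receptors 8 were tested and 0 were called by edgeR (DESeq2 called 1, *Ifngr1*), with a median log2 fold change of -0.16. All knockouts lay below all WT hearts in 3 of the 8 and above in 1, while 31.3% of all tested genes did not overlap in either direction. The 3 lower ones, named after their values were seen, were *Il10ra* (-1.19, edgeR adjusted *P*=0.0907), *Csf3r* (-0.76, 0.289) and *Il2rg* (-0.67, 0.0936). The interferon gamma receptor chains were the most abundant, *Ifngr2* at 25.8 ± 3.62 and 24.4 ± 4.10 CPM and *Ifngr1* at 10.3 ± 1.84 and 16.4 ± 3.76 CPM in WT and *Smyd1-KO* hearts. All 16 genes of receptor signaling were tested and 0 were called by edgeR (DESeq2 called 1, *Jak3*), with a median of -0.06. The phosphatase gene *Ptpn11* and the adaptor gene *Grb2* were the most abundant, at 316 ± 30.1 and 121 ± 11.0 CPM in WT and at 247 ± 20.7 and 112 ± 6.13 CPM in *Smyd1-KO* hearts. *Jak2*, the kinase that EPO and beta chain receptors use, was at 36.5 ± 1.07 CPM in WT and 36.5 ± 0.638 CPM in *Smyd1-KO* hearts, and was chosen for mention after its values were seen. Unadjusted *P* values under 0.05 were found for 3 of the 8 receptors and 5 of the 16 signaling genes.

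Of 9 cytokine response genes 1 was called. *Pim1*, a kinase gene induced by STAT5, rose from 75.1, 74.4 and 66.3 CPM in WT to 134, 115 and 103 CPM in *Smyd1-KO* hearts (log2 fold change 0.71, SE 0.111, edgeR adjusted *P*=0.0187). Every knockout was above every WT heart. The call was lost without *Smyd1-KO* heart 2, WT heart 1, WT heart 2 or WT heart 3 (adjusted *P* from 0.0508 to 0.0977). The STAT5 targets *Cish* and *Socs2* had log2 fold changes of 0.03 and 0.02, and the median of the 9 genes was 0.12. A positive log2 fold change was found for 8 of the 9, and an unadjusted *P* under 0.05 for 3. All knockouts lay above all WT hearts in 4 of them, while 31.3% of all tested genes did not overlap in either direction. Among these 4 were *Dusp6* (0.48, edgeR adjusted *P*=0.0936) and *Pim2* (0.41, edgeR adjusted *P*=0.0898), which were not called. *Cish*, *Socs2*, *Dusp6* and *Pim2* were likewise chosen after their values were seen.

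Of 20 erythroid genes 19 were tested, 7 were called lower and 0 higher, beside 1.42% of all tested genes called lower. The other 12 did not pass edgeR's test, among them the 5 globin genes, *Slc4a1*, *Rhag*, *Epb42* and *Klf1*. All knockouts nonetheless lay below all WT hearts in 17 of the 19, these globin genes among them, while 31.3% of all tested genes did not overlap in either direction. An unadjusted *P* under 0.05 was found for 18 of the 19. A negative log2 fold change was found for 18 of the 19, with a median of -2.49, and *Tfrc*, the transferrin receptor, had 0.50 (adjusted *P*=0.145) and *Tmcc2* -0.05 (adjusted *P*=0.752). The genes that did not pass were chosen for mention after their values were seen. *Icam4* was at 0 in all hearts. The summed level of the 20 genes was 981 to 1274 CPM in WT and 268, 647 and 500 CPM in *Smyd1-KO* hearts. Among the called genes were *Gata1*, the erythroid transcription factor, with a log2 fold change of -3.14 (SE 0.676, edgeR adjusted *P*=0.0445), *Ermap*, an erythroid membrane protein, with -2.90 (SE 0.499, adjusted *P*=0.0237), and *Kel*, the Kell blood group protease, with -2.73 (SE 0.560, adjusted *P*=0.0392). Each of these 3 calls was lost without *Smyd1-KO* heart 2, *Smyd1-KO* heart 3, WT heart 2 or WT heart 3 (adjusted *P* from 0.0597 to 0.162), those of *Gata1* and *Kel* also without WT heart 1 (0.0743 and 0.0558). The erythroid list gave 16 called genes, 15 lower and 1 higher, without *Smyd1-KO* heart 1 and 0 without WT heart 2. The erythroid genes were lower in the same hearts as *Csf2rb* and *Csf2rb2*, and their part in that result was not tested.

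**Figure D4:**
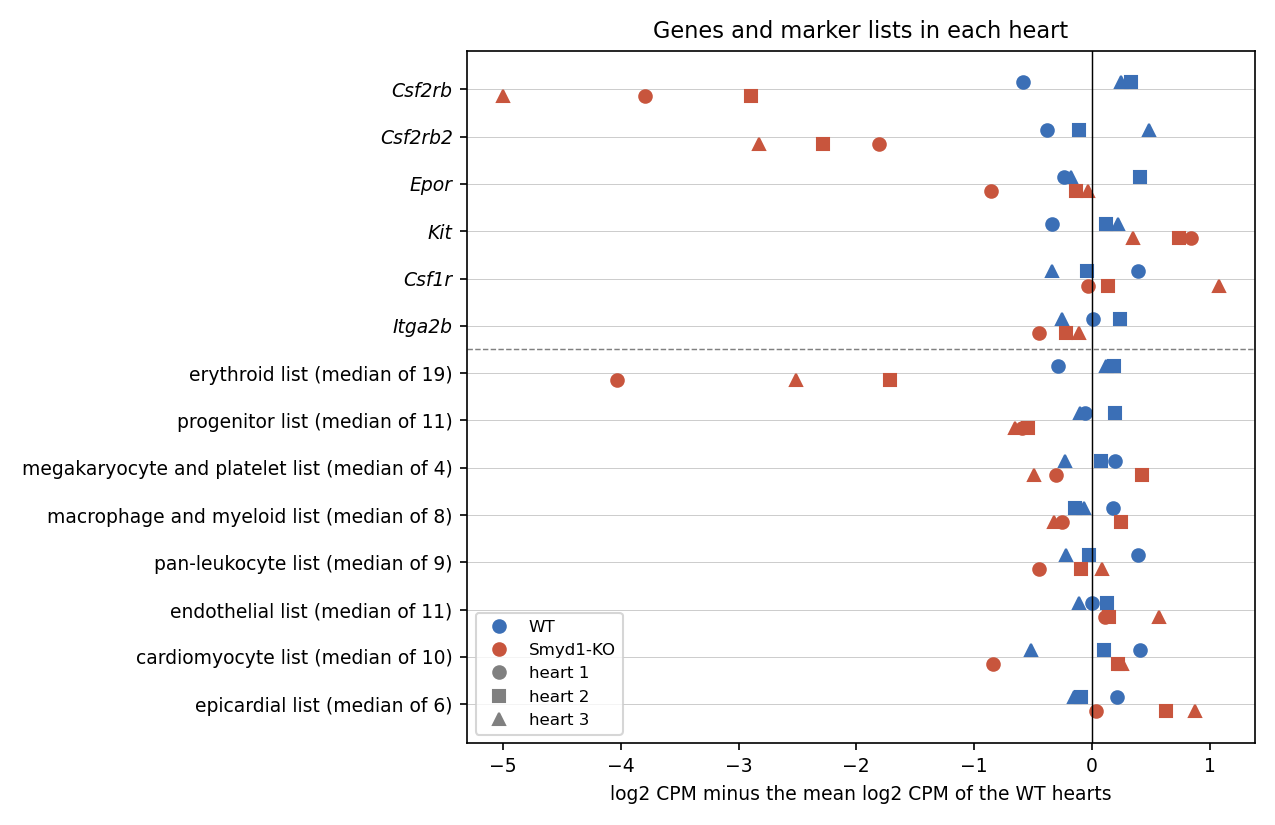
Log2 CPM of each heart minus the mean log2 CPM of the WT hearts (horizontal axis) for 6 members and for the median gene of 8 marker lists, with WT hearts in blue, *Smyd1-KO* hearts in red and the symbol giving the heart's number within its genotype. *Smyd1-KO* heart 1 is lowest for the erythroid list (-4.03) and for *Epor* (-0.86), and *Smyd1-KO* heart 3 is lowest for *Csf2rb* (-5.00) and *Csf2rb2* (-2.83).

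The lowest knockout heart was not the same for the beta chains and the median erythroid gene. Relative to the WT mean, *Csf2rb* was at -3.79, -2.89 and -5.00 on the log2 scale in *Smyd1-KO* hearts 1, 2 and 3, *Csf2rb2* was at -1.81, -2.28 and -2.83, and the median erythroid gene was at -4.03, -1.71 and -2.51. *Epor* was at -0.86, -0.13 and -0.03. The beta chain values rest on 16, 38 and 7 counts of *Csf2rb* and 12, 10 and 6 counts of *Csf2rb2*, so counting error limits their order. The second knockout was the highest for *Csf2rb* and for the median erythroid gene, and the first was the highest for *Csf2rb2*. A link between these orders was not tested. The first knockout was thus the lowest for the median erythroid gene and for *Epor*, and the third was the lowest for both beta chains. This order did not hold for every gene of the erythroid list, as *Tspan33*, looked at afterwards, was lowest in the third knockout. The first knockout heart also had the lowest cardiomyocyte median of -0.84 and the lowest total count.

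Markers of other blood cells were low or did not pass the test. Of 18 macrophage and myeloid genes 8 were tested and 0 were called by edgeR (DESeq2 called 1, *Mrc1*), with a median of -0.33, a summed level of 9.16 to 13.1 CPM in WT and 9.65 to 10.8 CPM in *Smyd1-KO* hearts, and 7 genes under 10 counts in every heart. *Cd68*, a lysosomal protein of macrophages, was at 3.40 ± 0.776 CPM in WT and 2.22 ± 0.372 CPM in *Smyd1-KO* hearts, and *Mrc1*, the mannose receptor, was at 2.59 ± 0.352 and 4.30 ± 0.682 CPM. Of 12 pan-leukocyte genes 9 were tested and 0 were called by edgeR (DESeq2 called 1, *Cd53*), with a median of -0.20 and a summed level of 43.8 to 61.2 CPM in WT and 46.2 to 64.3 CPM in *Smyd1-KO* hearts. *Lcp1* and *Arhgdib* made up most of it, at 22.5 ± 1.62 and 21.4 ± 6.11 CPM in WT and 23.7 ± 0.198 and 25.0 ± 8.98 CPM in *Smyd1-KO* hearts, and *Cd48* had a count in WT heart 1 alone. The summed level thus says little of the less abundant genes, and 6 of the 9 tested had a negative log2 fold change. *Cd53*, described after its values were seen, had -2.15 (edgeR adjusted *P*=0.0668) and lay below all WT hearts in every knockout. Unadjusted *P* values under 0.05 were found for 3 of the 8 macrophage and 1 of the 9 pan-leukocyte genes.

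Of 12 megakaryocyte and platelet genes 4 were tested, with a median of -0.03 and a summed level of 3.39 to 4.40 CPM in WT and 4.09 to 8.41 CPM in *Smyd1-KO* hearts. *Pf4*, the platelet factor 4 gene, was not above 0.254 CPM in any heart. *Clec1b*, which encodes the podoplanin receptor CLEC2, was the only one called and rose from 1.07 ± 0.228 to 4.17 ± 0.992 CPM (log2 fold change 1.96, SE 0.269, edgeR adjusted *P*=0.0128). It was above all WT hearts in the 3 knockouts, and its call was lost without *Smyd1-KO* heart 2, WT heart 2 or WT heart 3 (adjusted *P* from 0.0503 to 0.0858). The other tested genes were *Tubb1* (log2 fold change -1.48, edgeR adjusted *P*=0.231), *Gp5* (-0.29, 0.837) and *Gp1ba* (0.23, 0.673), named after their values were seen.

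The progenitor list held 2 called genes, both lower, among 11 tested, with a median of -0.46, beside 1.42% of all tested genes called lower. All knockouts lay below all WT hearts in 5 of the 11 and above in 0, while 31.3% of all tested genes did not overlap in either direction. An unadjusted *P* under 0.05 was found for 7 of the 11. *Gata2*, the transcription factor of blood progenitors and endothelium, fell from 26.5 ± 4.67 to 10.8 ± 1.04 CPM (log2 fold change -1.29, SE 0.157, edgeR adjusted *P*=0.00857). *Ikzf1*, the lymphoid and progenitor factor Ikaros, fell from 3.17 ± 0.600 to 1.30 ± 0.170 CPM (log2 fold change -1.29, SE 0.227, edgeR adjusted *P*=0.0256). The *Gata2* call was lost without WT heart 2 alone (adjusted *P*=0.0522), and that of *Ikzf1* without *Smyd1-KO* heart 2, *Smyd1-KO* heart 3, WT heart 2 or WT heart 3 (adjusted *P* from 0.0598 to 0.122). *Kit*, which marks these progenitors and other cell types too, was higher in the same knockout hearts.

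Endothelial genes are given because *Kit* lies beside *Kdr* and because blood progenitors and endothelium share genes. Of 11 endothelial genes 1 was called, *Flt1*, a VEGF receptor, which rose from 56.9 ± 5.71 to 126 ± 31.6 CPM (log2 fold change 1.15, SE 0.182, edgeR adjusted *P*=0.0192), with a list median of 0.25. DESeq2 called 4, with *Flt1* and *Kdr* higher and *Nfatc1* (log2 fold change -0.83 by edgeR) and *Npr3* (-0.52) lower, and the last 2, named after their values were seen, were below all WT hearts in the 3 knockouts. The *Flt1* call was lost without *Smyd1-KO* heart 2, WT heart 1, WT heart 2 or WT heart 3 (adjusted *P* from 0.0621 to 0.0883). The summed endothelial level was 732 to 878 CPM in WT and 786, 949 and 1208 CPM in *Smyd1-KO* hearts. All 6 epicardial genes were tested and 0 were called by edgeR (DESeq2 called 2), with a median of 0.47 and with *Upk3b* at 24.2 ± 3.93 and 60.7 ± 28.9 CPM and *Wt1* at 24.3 ± 5.64 and 52.6 ± 23.0 CPM in WT and *Smyd1-KO* hearts. Unadjusted *P* values under 0.05 were found for 2 of the 6 epicardial genes.

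Apart from the beta chains, which are each other's neighbor, the genes beside the members on their chromosomes did not pass edgeR's test. *Ncf4*, a subunit of the phagocyte oxidase that lies 19926 bp from *Csf2rb2*, had 22, 19 and 30 counts in WT and 1, 11 and 2 counts in *Smyd1-KO* hearts (log2 fold change -2.14, SE 0.664, edgeR adjusted *P*=0.107). *Tst*, 45708 bp from *Csf2rb* on the other side, had a log2 fold change of 0.22 (adjusted *P*=0.513). *Kdr*, the main VEGF receptor, lies 276104 bp from *Kit* and was above all WT hearts in the 3 knockouts, with a log2 fold change of 0.70 (SE 0.167, edgeR adjusted *P*=0.0569, DESeq2 adjusted *P*=0.00217), and *Pdgfra*, a receptor kinase of the same class as *Kit* on its other side, had 0.21 (adjusted *P*=0.492). Of that class *Pdgfrb*, beside *Csf1r*, had 0.26 (adjusted *P*=0.387) and *Flt3* was too low for a test. *Swsap1* and *Rgl3* beside *Epor* had log2 fold changes of -0.31 and 0.85, *Slc26a2* beside *Csf1r* -0.18, *Nr5a2* and *Nek7* beside *Ptprc* 0.51 and 0.37, and *Fam171a2* and *Gpatch8* beside *Itga2b* -0.29 and -0.06, and edgeR called none of them, while DESeq2 called *Rgl3* (adjusted *P*=0.0308).

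The genes whose levels followed each member most closely over the 6 hearts were found by the root mean square (RMS) difference of log2 CPM relative to the WT mean, among tested genes with a mean of at least 1 CPM. *Sfta3-ps* was among the 2 genes nearest to *Csf2rb* (RMS difference 0.818). *Csf2rb2* was nearest to *Cmtm5* (0.439) and *Pklr*, the pyruvate kinase of liver and red cells (0.448). *Epor* was nearest to *Hcn4*, the pacemaker channel (0.104), and *Fbxo32*, a muscle ubiquitin ligase (0.111), and *Kit* to *Plag1* (0.0811) and *Cbx7* (0.0930). *Csf1r* was nearest to *Tspo* (0.101) and *Slc35d2* (0.111), *Itga2b* to *F8a* (0.0516) and *Lgals3bp* (0.0572), and *Ptprc*, at its few counts, to *Lyz2* (0.150) and *Cav3* (0.382). The differences are larger for the beta chains, whose levels spread more, so the values describe each gene's own nearest genes and are not comparable between members.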

How the data were processed

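The authors purified poly A RNA of individual E9.5 hearts on oligo-dT and read both ends of each fragment for 75 bases, with alignment to mm10 by STAR. STAR and DESeq2 are also named in the submitters' processing notes. The counting tool, the annotation release and the strand setting are not given in the sources used here. The authors deposited raw read counts per gene, without normalization, and a normalized signal, which equals those counts divided by 1 size factor per heart and was used for this check only.

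The test between 3 WT and 3 *Smyd1-KO* hearts was run in edgeR 4.0.16 under R 4.3.3 (filterByExpr, TMM, quasi-likelihood F test, Benjamini-Hochberg adjustment over 19372 genes), with calls made where the adjusted *P* was under 0.05 and the log2 fold change was 0.5 or more in size. The SE is the log2 fold change divided by the square root of F. Total counts were 48627825 to 64217529 per heart, and the biological coefficient of variation was 22.5%. A prior count of 2 was used for log2 CPM. Positions and exonic lengths came from GENCODE in GRCm38, and 54495 genes were found there. The script was tested on simulated data. Each heart came from 1 embryo, and same-numbered hearts are different embryos.

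The members and the gene lists were chosen with earlier results of these data known. Named were all members, ligands and partner chains, up to 4 called genes with the largest change per other list or, with 0 called, the 2 most abundant, the nearest tested protein-coding gene on either side of each member, and the 2 genes most alike to each member. A gene that this rule names is not reported here. Of the listed genes, *Fam132b* is named *Erfe* in the table. Alternatives were DESeq2 1.42.0, RLE or upper-quartile factors, no mitochondrial and hemoglobin genes, other filters and thresholds, robust estimation, limma voom (limma 3.58.1), a replicate block, leaving out each heart, and the beta chains summed. The other data of the study were not analysed here.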

Additional observations from a re-analysis of the deposited data

How the results depend on the processing

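The direction of all 6 tested members was the same under every alternative that gave a value, with log2 fold changes from -4.52 to -3.39 for *Csf2rb*, -2.82 to -2.20 for *Csf2rb2*, -0.48 to -0.09 for *Epor*, 0.49 to 0.77 for *Kit*, 0.03 to 0.72 for *Csf1r* and -0.38 to -0.14 for *Itga2b*. The number of members called was 3 with DESeq2, which added *Kit*, 1 with glmTreat against a log2 fold change of 0.5, which lost *Csf2rb2* (adjusted *P*=0.0649), 1 with the beta chains summed, and 0 to 2 when a heart was left out. It was 0 with at least 10 counts in every heart, since *Smyd1-KO* heart 3 has 7 and 6 counts of the beta chains and that filter takes both out of the test. Over all genes, DESeq2 called 1749, glmTreat 154, and the fits without 1 heart 97 to 1256.

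Same-numbered hearts came from separate embryos, and the deviations of same-numbered hearts from their genotype's mean correlated at -0.216, -0.0538 and -0.182. These deviations sum to 0 within each genotype, and the sample labels give no litter or batch, so the correlations cannot decide whether the numbers pair the hearts. With the replicate block, 59 genes and 0 members were called, with adjusted *P*=0.0842 for *Csf2rb* and 0.126 for *Csf2rb2*, and the log2 fold changes were -3.94 and -2.48. The block left 1 erythroid gene called and 0 ligands, partner chains, cytokine response genes, megakaryocyte, progenitor and endothelial genes. No heart correlated best with its own number.

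DESeq2 called 14 erythroid genes lower, 5 progenitor genes (1 higher, 4 lower), 4 endothelial genes (2 higher, 2 lower) and 2 epicardial genes higher, and 1 each of the cardiomyocyte, macrophage, pan-leukocyte, other receptor and signaling lists. When each heart was left out in turn, 0 to 16 erythroid genes were called, 0 to 3 progenitor, endothelial or epicardial genes, 0 to 2 ligands or cardiomyocyte genes, and 0 to 1 partner chains, cytokine response, megakaryocyte, other receptor or signaling genes. Counts of 0 to 7 per heart for *Ptprc*, and of 6 to 12 for *Csf2rb2* in the knockouts, limit these values by counting error. The cause of the lost calls was not tested.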
